A study of Danio rerio with 4 samples.

Results

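The genes described are ta, noto, shha, shhb and epyc, 5 genes best known from the notochord and the midline of the zebrafish (Danio rerio) embryo. They were chosen by symbol, with earlier results of these data known, and all 5 were found among the 31947 genes of the count table. The gene lists below were also chosen with those results known. Cells were dissociated and sorted from tails at 52 hours post fertilisation (hpf), and their RNA was sequenced. At that stage the tail contains the caudal hematopoietic tissue (CHT), a vessel-rich niche where blood stem and progenitor cells settle. The group CHT-EC (2 libraries) was sorted as kdrl:mCherry-positive cells, a reporter driven by a promoter of endothelial cells. The group CHT-HSPC (2 libraries) was sorted as CD41:GFP-positive cells, a reporter driven by the promoter of itga2b and active in blood stem and progenitor cells and in thrombocytes. Both groups had the same age and tissue, and no mutation or treatment is named in the labels. The comparison asks how gene expression differs between cells sorted by an endothelial reporter and cells sorted by a blood cell reporter. The labels do not state whether replicate libraries stem from different clutches or sorts, so every p-value reflects only the spread among these 4 libraries, which may be technical.

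The notochord is the stiff rod along the midline of the embryo, made of a vacuolated core and an outer layer of sheath cells that secrete a collagen-rich sheath. In the trunk and tail it runs close to the dorsal aorta and the caudal vein. It is also a signalling centre: Hedgehog proteins released by the notochord and by the floor plate of the neural tube pattern slow muscle, ventral neural tube and sclerotome, and Hedgehog signals are needed for the dorsal aorta and for the blood stem cells that arise from it. Brachyury, encoded by ta, is the T-box factor behind the mutant no tail. Noto is the homeobox factor behind floating head and keeps notochord precursors from a somite fate. Of the Hedgehog ligands, shha is made in notochord and floor plate and shhb mainly in the floor plate. Epiphycan, encoded by epyc, is a small leucine-rich proteoglycan of the extracellular matrix known from cartilage.

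Totals ranged from 27514202 to 32268535 counts per library, and 0 counts in a library allow a level of up to 0.0867 to 0.112 CPM (counts relative to the library total, corrected by TMM factors), the level of 3 counts. Such limits cover counting error only. The labelled cell types were checked against listed markers. The 6 markers of stem cells and thrombocytes were all higher in CHT-HSPC, a count that was 1 without CHT-EC replicate 1. Of all tested genes, 0.752% passed toward CHT-HSPC. Of 7 endothelial markers, 6 had a positive log2 fold change (median 2.17), against 50.8% of all tested genes. At an unadjusted p under 0.05, 4 were higher in CHT-EC (14.6% of all tested genes were). With adjustment DESeq2 called 3, in a fit that called 2012 of all tested genes toward CHT-EC, against 718 with edgeR. With edgeR 1 passed toward CHT-EC (3.78% of all tested genes did). This was stab2, a scavenger receptor of the caudal vein, which did not pass once CHT-EC replicate 1 was left out (adjusted p = 0.177) or with library totals alone (0.0512). No marker of either list was at 0 in any library. The level of kdrl itself was 14.5 and 3.40 CPM in CHT-EC, against 3.07 and 0.896 CPM in CHT-HSPC, and it did not pass the test (adjusted p = 0.208). The groups are therefore named by their gates, and these are bulk libraries, in which fewer cells of a type and less RNA per cell cannot be told apart.

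The genes ta, shha and epyc were abundant in CHT-EC and scarce in CHT-HSPC, while shhb was counted in a single CHT-EC library and noto in none. The comparison was the edgeR quasi-likelihood test of CHT-EC against CHT-HSPC with Benjamini-Hochberg adjustment over the 19016 genes that passed the filter on low counts, with a threshold of 0.05. Of the 5 genes, 3 passed the filter, and all 3 were higher in CHT-EC, a direction in which 3.78% of all tested genes were called, while 0.752% were called toward CHT-HSPC. As the 5 genes were chosen with earlier results of these data known, these shares give scale and do not test the set. The log2 fold change (log2FC) is positive where CHT-EC was higher.

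Brachyury was the transcription factor of the set with a clear signal. The counts of ta (ENSDARG00000101576, named tbxta in current annotation) were 8948 and 2805 in the CHT-EC libraries, against 165 and 77 in CHT-HSPC. These are 335 and 95.3 CPM in CHT-EC, against 5.56 and 2.23 CPM in CHT-HSPC. Both CHT-EC libraries lay above both CHT-HSPC libraries, as did 30.6% of all tested genes, and replicate 1 was the higher library within each group. The mean was 215 ± 170 CPM in CHT-EC, against 3.89 ± 2.36 CPM in CHT-HSPC (SD, n = 2 libraries each), and the log2FC was 5.79 (SE 0.77, adjusted p = 0.0153), or 55.4-fold. Without CHT-EC replicate 1 it was 4.63 and still past the threshold (adjusted p = 0.0380).

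Epiphycan had the widest separation of the 3 tested genes. The counts of epyc (ENSDARG00000056950) were 19896 and 6133 in the CHT-EC libraries, against 105 and 105 in CHT-HSPC. These are 746 and 208 CPM in CHT-EC, against 3.54 and 3.04 CPM in CHT-HSPC. The CHT-HSPC libraries were nearly equal, and the CHT-EC libraries differed by 3.58-fold without approaching them. The mean was 477 ± 380 CPM in CHT-EC, against 3.29 ± 0.356 CPM in CHT-HSPC (SD, n = 2 libraries each), and the log2FC was 7.18 (SE 0.70, adjusted p = 0.00821), or 145-fold. Among the tested genes it ranked 41 by p and 196 by log2FC. Without CHT-EC replicate 1 the log2FC was 5.99 (adjusted p = 0.0125).

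Sonic hedgehog a was also higher in CHT-EC, with a wider spread there. The counts of shha (ENSDARG00000068567) were 4129 and 639 in the CHT-EC libraries, against 76 and 118 in CHT-HSPC. These are 155 and 21.7 CPM in CHT-EC, against 2.56 and 3.41 CPM in CHT-HSPC. The groups did not overlap, but CHT-EC replicate 1 stood 7.13-fold above replicate 2. The mean was 88.2 ± 94.1 CPM in CHT-EC, against 2.99 ± 0.601 CPM in CHT-HSPC (SD, n = 2 libraries each), and the log2FC was 4.88 (SE 0.91, adjusted p = 0.0355), or 29.5-fold. The call ended without CHT-EC replicate 1, where the log2FC was 2.86 (adjusted p = 0.117), and it ended narrowly without CHT-HSPC replicate 1 (adjusted p = 0.0593) or CHT-HSPC replicate 2 (adjusted p = 0.0536). It also ended with limma-voom (log2FC 4.25, adjusted p = 0.0970).

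The paralog shhb (ENSDARG00000038867), known as tiggywinkle hedgehog, had 101 counts in CHT-EC replicate 1 and 0 in CHT-EC replicate 2, against 0 and 0 in CHT-HSPC. Its level in CHT-EC replicate 1 was 3.79 CPM, with an exact Poisson interval (95%) of 3.08 to 4.60 CPM. A signal in a single library kept it below the filter, so it was not tested. Pooled over the libraries of a group, shhb was at least 38.6-fold higher in CHT-EC than the level that 3 counts over the CHT-HSPC group allow, a bound that rests on that library alone. Without the low-count filter the same test called it (adjusted p = 0.00320), in a fit that called 2119 genes toward CHT-EC, against 718 with the filter. As its counts came from CHT-EC replicate 1 alone, that p-value does not show a difference shared by the CHT-EC libraries. The homeobox gene noto (ENSDARG00000021201) had 0 counts in all 4 libraries, so it was not detectable at this depth in either group.

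**Figure D1:**
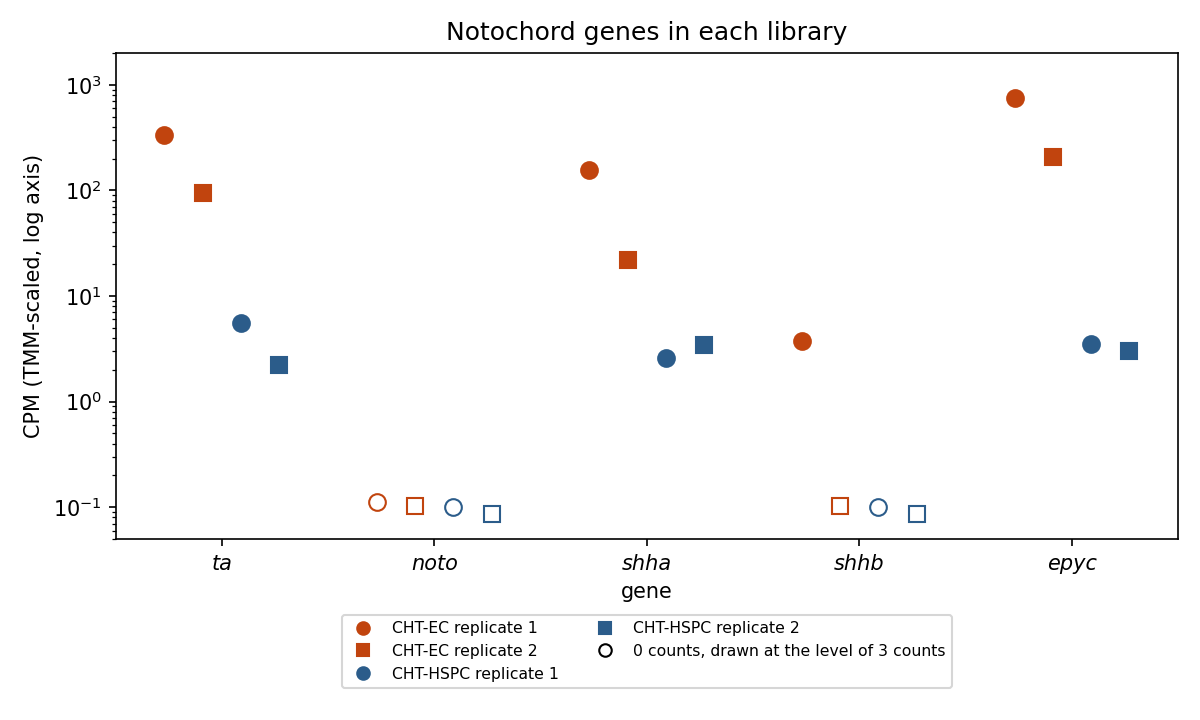
Level of the 5 genes in each library, in TMM-scaled CPM on a log axis, with CHT-EC in orange left of CHT-HSPC in blue, and open symbols for 0 counts drawn at the level of 3 counts. The CHT-EC points of ta, shha and epyc lie between 21.7 and 746 CPM and the CHT-HSPC points between 2.23 and 5.56 CPM, while shhb has 1 filled point and noto none.

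Together the 5 genes took 0.120% and 0.0323% of all counts in the CHT-EC libraries, against 0.00113% and 0.000930% in CHT-HSPC. Expressed as a share of the CHT-EC mean, the CHT-HSPC mean was 0.689% for epyc, 1.81% for ta and 3.38% for shha. The 3 detected genes of CHT-HSPC thus sat in a narrow range of levels there, 2.23 to 5.56 CPM, and their order by fold change followed their order by level in CHT-EC. Whether the 3 fold changes differ from each other was not tested.

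The CHT-EC libraries did not carry these genes equally. The ratio of replicate 1 to replicate 2 in CPM was 3.52 for ta, 3.58 for epyc and 7.13 for shha, against a median of 0.995 over the 18228 tested genes with a count in both CHT-EC libraries. Ratios at least as high were found for 5.49% of those genes in the case of ta, 5.29% for epyc and 1.67% for shha. In CHT-HSPC the ratio of replicate 1 to replicate 2 was 2.50 for ta, 1.17 for epyc and 0.751 for shha.

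Of the other genes of notochord and sheath, most lay on the same side. Of 34 listed genes, chosen with earlier results of these data known, 33 were in the table and 32 were tested. Of these, 11 passed toward CHT-EC and 0 toward CHT-HSPC (3.78% and 0.752% of all tested genes did), and 21 did not pass. The absence of calls toward CHT-HSPC held at an unadjusted p under 0.05 (26 genes toward CHT-EC and 0 toward CHT-HSPC, against 14.6% and 9.23% of all tested genes) and with DESeq2 and limma-voom. The median log2FC was 3.50, against 0.02 over all tested genes, and 28 of 32 were positive, against 50.8% of all tested genes. Both CHT-EC libraries lay above both CHT-HSPC libraries for 26 of 32, against 30.6% of all tested genes.

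The named members of that list were sheath collagens. The collagen II gene col2a1a (ENSDARG00000069093) averaged 7857 ± 6715 CPM in CHT-EC, against 57.2 ± 23.1 CPM in CHT-HSPC (SD, n = 2 libraries each; log2FC 7.10, SE 0.79, adjusted p = 0.0103). The collagen IX chains, which decorate collagen II fibrils, gave log2FCs of 7.25 for col9a1b, 6.95 for col9a3 and 6.90 for col9a2 (adjusted p = 0.0101, 0.0115 and 0.0101). The other called genes were cmn, which encodes the notochord protein calymmin, col8a1a, matn3a, matn4, acanb, ctgfa and foxa1. The forkhead genes foxa2, of floor plate and notochord, and foxa did not pass, with log2FCs of 5.45 (adjusted p = 0.0805) and 5.44 (adjusted p = 0.0890). Among the genes that did not pass were also the basement membrane laminins lama1 (1.82, adjusted p = 0.107), lamb1a (−0.46) and lamc1 (−0.02). The list took 2.53% and 0.643% of all counts in the CHT-EC libraries, against 0.0418% and 0.0506% in CHT-HSPC. Its median ratio between CHT-EC replicates 1 and 2 was 3.41, next to the 3.52 of ta and the 3.58 of epyc. Leaving out CHT-EC replicate 1 left 7 calls, all of them collagen, matrilin or calymmin genes, and leaving out replicate 2 gave 17. DESeq2 called 25 and the test without the low-count filter 27. These fits called 2012 and 2119 of all genes toward CHT-EC, against 718 with edgeR and the filter.

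**Figure D2:**
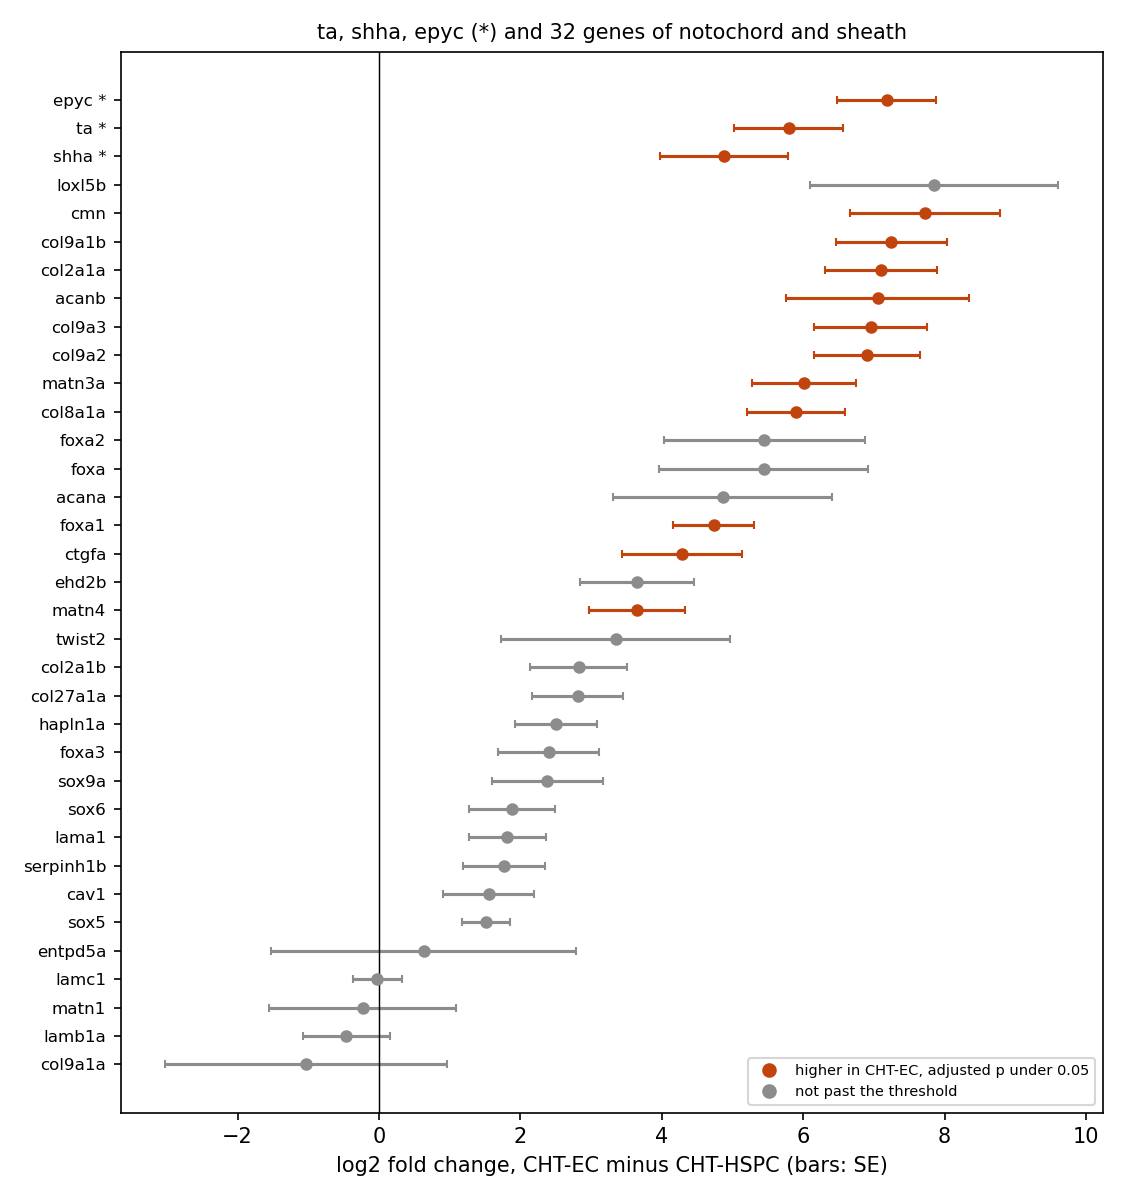
Log2FC (CHT-EC over CHT-HSPC) of ta, shha and epyc (marked *) and of the 32 tested genes of the notochord and sheath list, sorted within each block, with SE bars and the called genes in orange. The 3 marked genes at 4.88 to 7.18 lie within the span of the 11 called list members, 3.65 to 7.72.

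The genes whose profiles over the 4 libraries were most like those of ta and epyc were matrix genes. Likeness was the Euclidean distance between centred log2(CPM + 0.5) profiles, ranked among 14020 named genes with a mean of at least 1 CPM, and 4 libraries leave it little resolution. Nearest to ta were col8a1a (distance 0.388), a network-forming collagen, col11a1a (0.443), a fibrillar collagen, and chad (0.468), which encodes the leucine-rich repeat protein chondroadherin of cartilage. Nearest to epyc were col9a3 (0.349), col9a2 (0.609) and lect1 (0.635), which encodes chondromodulin. Nearest to shha were genes of other kinds: csf3b (0.487), a granulocyte colony-stimulating factor, rgs2 (0.506), a regulator of G-protein signalling, and urp2 (0.558), a urotensin-related peptide of neurons that contact the cerebrospinal fluid. The level of urp2 was 22.9 and 4.93 CPM in CHT-EC, against 0 and 0.116 CPM in CHT-HSPC, where the group had 4 counts.

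In the list of T-box and tail bud genes, which holds ta itself, 13 of 21 genes were tested. Of these, 3 were higher in CHT-EC, against 3.78% of all tested genes, which were ta, its paralog tb and tbx6l. Calls toward CHT-HSPC numbered 0, against 0.752% of all tested genes, and also 0 with DESeq2 and limma-voom. At an unadjusted p under 0.05 there were 0 as well, against 9.23%. Among 13 genes a count of 0 is close to these shares. The list median was 0.20, and it was the same with tb and cdx4, which had no CHT-HSPC counts, set to their bounds. The log2FC was positive for 7 of 13 (50.8% of all tested genes). Among those below 0 were tbx6 (−2.02, adjusted p = 0.250), msgn1 (−2.42, adjusted p = 0.502) and tbx16 (−0.61, adjusted p = 0.830). The second Brachyury gene tb (ENSDARG00000039806) had 181 and 69 counts in the CHT-EC libraries, against 0 and 0 in CHT-HSPC. This made it at least 95.4-fold higher in CHT-EC (adjusted p = 0.0319), with 3 counts over the CHT-HSPC group as the floor. Its ratio between CHT-EC replicates 1 and 2 was 2.89. The presomitic mesoderm gene tbx6l (ENSDARG00000006939) was at 12.4 and 24.6 CPM in the CHT-EC libraries, against 0.809 and 0.231 CPM in CHT-HSPC libraries (log2FC 5.16, SE 0.79, adjusted p = 0.0208). It therefore had the opposite order of the CHT-EC libraries from ta and tb. The gene tb did not pass once CHT-EC replicate 1 was left out (adjusted p = 0.251) or with limma-voom (0.113). The gene tbx6l did not pass with either CHT-EC library left out (0.0596 for replicate 1 and 0.0566 for replicate 2) or with limma-voom (0.0555).

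Epiphycan belongs to the small leucine-rich proteoglycans and related leucine-rich repeat proteins, whose log2FCs ranged from 0.06 to 7.18. Of 17 listed genes, also chosen with earlier results of these data known, 11 were tested. Of these, epyc and chad were the 2 higher in CHT-EC, against 3.78% of all tested genes. At an unadjusted p under 0.05 there were 4 toward CHT-EC and 0 toward CHT-HSPC (14.6% and 9.23% of all tested genes). Both CHT-EC libraries lay above both CHT-HSPC libraries for 8 of 11, against 30.6% of all tested genes. All 11 log2FCs were positive (50.8% of all tested genes were), with a median of 2.12, against 0.02 over all tested genes. Without CHT-EC replicate 1 or without CHT-HSPC replicate 2, 9 of 11 were positive. DESeq2 called 4. The level of chad (ENSDARG00000045071) averaged 76.5 ± 61.9 CPM in CHT-EC, against 1.37 ± 0.633 CPM in CHT-HSPC (SD, n = 2 libraries each; log2FC 5.80, SE 0.76, adjusted p = 0.0140). Decorin (dcn), a collagen-binding proteoglycan of connective tissue, was at 35.3 and 16.7 CPM in the CHT-EC libraries, against 6.34 and 5.67 CPM in CHT-HSPC, and narrowly missed the threshold (log2FC 2.12, adjusted p = 0.0594). The keratan sulfate proteoglycans kera and lum had log2FCs of 0.07 (SE 1.04, adjusted p = 0.983) and 0.63 (SE 0.61, adjusted p = 0.578). In the RefSeq gene order of the assembly GRCz12tu, kera and lum are the 2 protein-coding genes next to epyc on one side.

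The neighbours of the other 4 genes were read from the same gene order, with 2 protein-coding genes on each side of each gene, and all 5 genes were matched there by symbol or synonym. Of the 20 neighbours, 19 were in the count table, 16 were tested and 1 was called, against 3.78% of all tested genes toward CHT-EC. This was zdhhc18b, a palmitoyltransferase gene near ta, with a log2FC of 3.34 (SE 0.48, adjusted p = 0.0182), and its call ended without CHT-EC replicate 1 (adjusted p = 0.0509). The genes adjoining ta, nudc (−0.20) and arid1ab (−0.51), did not pass (adjusted p = 0.762 and 0.300). Next to shha, rnf32 had 35 and 91 counts in the CHT-EC libraries, against 0 and 1 in CHT-HSPC, and did not pass (adjusted p = 0.0721). The gene beyond it, lmbr1, whose mammalian counterpart holds a limb enhancer of sonic hedgehog, did not pass either (log2FC −1.29, adjusted p = 0.0706).

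In the Hedgehog pathway, shha was the sole called gene among 29 tested genes of ligands, reception and intracellular signal transfer, of 32 listed. A single call among 29 is close to the 3.78% of all tested genes called toward CHT-EC. None was called toward CHT-HSPC, against 0.752% of all tested genes. At an unadjusted p under 0.05 there were 6 toward CHT-EC and 1 toward CHT-HSPC (14.6% and 9.23% of all tested genes). DESeq2 called 3 and 1, in a fit that called 2012 and 796 of all tested genes, against 718 and 143 with edgeR. Limma-voom called none in either direction. Of the 29, 25 had a positive log2FC, against 50.8% of all tested genes, with a median of 0.86.

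Among the ligands, ihhb (echidna hedgehog), which the zebrafish notochord also makes, had 204 and 16 counts in the CHT-EC libraries, against 0 and 5 in CHT-HSPC. It did not pass (log2FC 5.70, SE 1.80, adjusted p = 0.121), and as for shha and shhb its counts came mostly from CHT-EC replicate 1. The 2 identifiers named ihha had 5 and 1 counts, all in CHT-EC replicate 1, and dhh had 1 and 0 counts in the CHT-EC libraries, against 0 and 24 in CHT-HSPC. Of the genes for ligand release, scube2, a secreted factor needed for Hedgehog spread in zebrafish, ran the other way, with 51.2 and 27.5 CPM in CHT-EC, against 85.5 and 89.5 CPM in CHT-HSPC libraries (log2FC −1.15, SE 0.36, adjusted p = 0.116). Its relative scube1 was at 12.3 and 3.74 CPM in the CHT-EC libraries, against 2.46 and 3.32 CPM in CHT-HSPC libraries (log2FC 1.47, adjusted p = 0.266).

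On the receiving side, 9 of 9 tested genes had a positive log2FC (50.8% of all tested genes did), with a median of 1.32. None passed with edgeR or limma-voom, where edgeR called 3.78% of all tested genes toward CHT-EC. At an unadjusted p under 0.05 there were 3 toward CHT-EC (14.6% of all tested genes). DESeq2 called 1, in a fit that called 2012 of all tested genes toward CHT-EC. Both CHT-EC libraries lay above both CHT-HSPC libraries for 8 of 9, against 30.6% of all tested genes. The receptor ptch1 (ENSDARG00000016404), itself induced by the pathway, was at 24.1 and 23.1 CPM in the CHT-EC libraries, against 6.23 and 9.16 CPM in CHT-HSPC libraries (log2FC 1.61, SE 0.40, adjusted p = 0.0736). Its CHT-EC libraries were equal within a ratio of 1.04, where those of shha differed by 7.13. The co-receptor genes cdon (0.86) and boc (0.76) did not pass (adjusted p = 0.275 and 0.375). Of 12 intracellular genes none passed with edgeR, DESeq2 or limma-voom, 1 had an unadjusted p under 0.05, and the median was 0.56. The kinase genes gsk3b (0.37), prkacab (1.01) and prkacaa (−0.10), whose products restrain Gli proteins, did not pass (adjusted p = 0.433, 0.135 and 0.878). The transcription factor gene gli1, another readout of the pathway, was at 5.66 and 5.64 CPM in the CHT-EC libraries, against 2.39 and 0.520 CPM in CHT-HSPC libraries (log2FC 1.96, SE 0.86, adjusted p = 0.224).

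Of 16 genes known as Hedgehog targets in trunk and tail, 12 were tested and 1 was higher in CHT-EC (3.78% of all tested genes were). This was prdm1a (ENSDARG00000002445), a factor of slow muscle fate that also acts in other lineages, which averaged 193 ± 51.0 CPM in CHT-EC, against 37.1 ± 7.78 CPM in the CHT-HSPC pair (SD, n = 2 libraries each; log2FC 2.38, SE 0.32, adjusted p = 0.0154). The call ended without CHT-EC replicate 1 (adjusted p = 0.0693). The ventral neural tube genes nkx6.1 (2.23, adjusted p = 0.0755) and nkx2.2a (4.12, adjusted p = 0.0830) did not pass. The sclerotome gene nkx3.2 averaged 4.91 CPM in CHT-EC, against 4.52 CPM in CHT-HSPC libraries, and did not pass (log2FC 0.12, SE 0.57, adjusted p = 0.928). DESeq2 called 5 targets, in a fit that called 2012 of all tested genes toward CHT-EC. With edgeR at an unadjusted p under 0.05 there were 6 of 12 toward CHT-EC and 0 toward CHT-HSPC (14.6% and 9.23% of all tested genes). The log2FC was positive for 9 of 12 (50.8% of all tested genes), with a median of 1.85, against 0.02 over all tested genes.

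**Figure D3:**
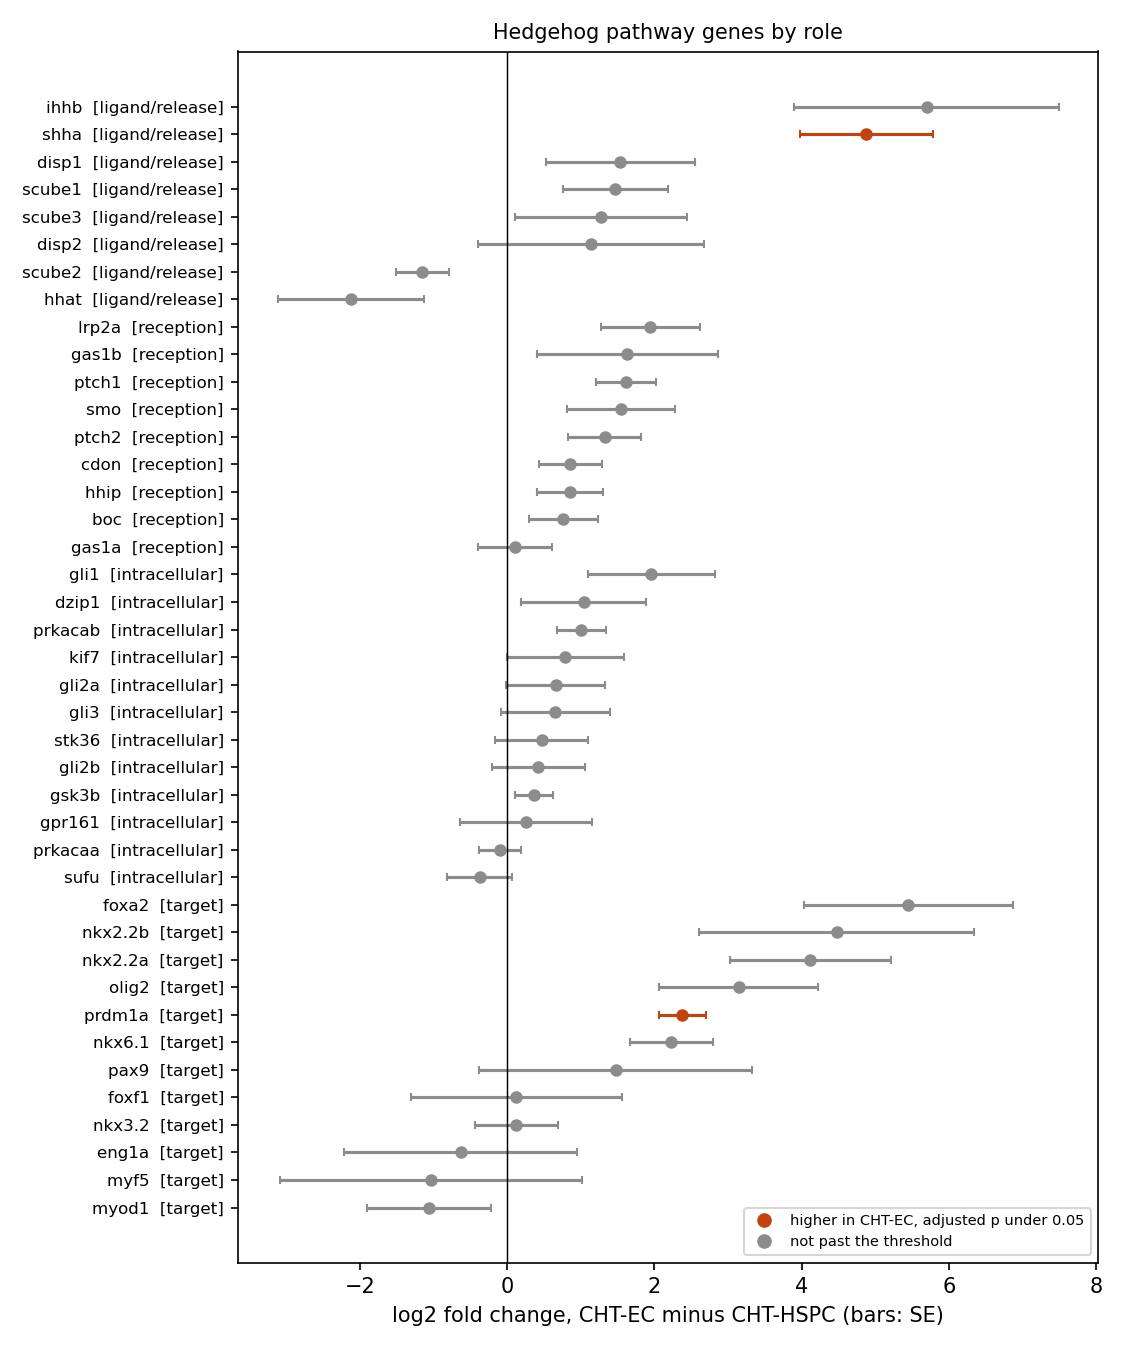
Log2FC (CHT-EC over CHT-HSPC) of tested Hedgehog pathway genes, grouped from top to bottom as ligands and release, reception, intracellular genes and targets, with SE bars. Only shha and prdm1a are drawn as called, and all 9 reception genes lie on the positive side at 0.11 to 1.94.

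The floor plate, the other source of shha and the main one of shhb, was read through 10 listed genes. Of the 8 tested, 1 was higher in CHT-EC, against 3.78% of all tested genes. This was ntn1b (ENSDARG00000022531), a netrin guidance cue, at 66.9 and 19.6 CPM in the CHT-EC libraries, against 1.75 and 1.30 CPM in CHT-HSPC libraries (log2FC 4.82, SE 0.68, adjusted p = 0.0171). The call ended without CHT-EC replicate 1 (adjusted p = 0.0764). The matrix gene spon1b (2.70, adjusted p = 0.187) and the sulfatase gene sulf1 (2.42, adjusted p = 0.209) had ratios of 13.8 and 10.4 between CHT-EC replicates 1 and 2, and without replicate 1 their log2FCs were −0.18 and −0.07. The median ratio over the list was 3.09. The genes foxj1a (2.26, adjusted p = 0.0571), foxa2 (5.45, adjusted p = 0.0805) and ntn1a (2.91, adjusted p = 0.0974) did not pass. At an unadjusted p under 0.05 there were 6 of 8 toward CHT-EC and 0 toward CHT-HSPC (14.6% and 9.23% of all tested genes). The log2FC was positive for 7 of 8 (50.8% of all tested genes), with a median of 2.56. DESeq2 called 4 floor plate genes, in a fit that called 2012 of all tested genes toward CHT-EC. The list took 0.0295% and 0.00585% of counts in the CHT-EC libraries, against 0.00249% and 0.00333% in CHT-HSPC.

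Markers of further tissues were read beside these genes. Of 8 neural tube markers, 6 were higher in CHT-EC (3.78% of all tested genes were), among them gfap of radial glia (log2FC 2.76, adjusted p = 0.00999) and tubb5, a tubulin (3.21, adjusted p = 0.0109). Without CHT-EC replicate 1 the count was 0, with tubb5 at an adjusted p of 0.0541, and without CHT-EC replicate 2 it was 3. All 8 had a positive log2FC (50.8% of all tested genes), with a median of 2.69. For all 8, both CHT-EC libraries lay above both CHT-HSPC libraries (30.6% of all tested genes). Their summed level was 343 to 344 CPM in CHT-EC, against 50.3 to 64.0 CPM in CHT-HSPC, with a median ratio of 0.908 between CHT-EC replicates 1 and 2. Of 7 epidermis markers, 1 was higher in CHT-EC (3.78% of all tested genes were), krt17 (4.13, adjusted p = 0.0395). The summed epidermis level was 1697 to 3223 CPM in CHT-EC, against 457 to 1220 CPM in CHT-HSPC. The log2FC was positive for 6 of 7 (50.8% of all tested genes), with a median of 2.02. At an unadjusted p under 0.05 there were 4 toward CHT-EC (14.6% of all tested genes). Both CHT-EC libraries lay above both CHT-HSPC libraries for 6 of 7 (30.6% of all tested genes). For DESeq2, used below, the count over all tested genes was 2012 toward CHT-EC. The krt17 call ended without CHT-EC replicate 1 (adjusted p = 0.243) or replicate 2 (0.0533), with library totals alone (0.0549) and with limma-voom (0.0802). The epidermis count was 3 with DESeq2, 4 without CHT-HSPC replicate 1 and 0 without either CHT-EC library. All 14 muscle markers had a negative log2FC (median −0.68), where 50.8% of all tested genes had a positive one. Their CHT-HSPC libraries differed widely, with a median ratio of 7.70 between replicates 1 and 2. With edgeR, DESeq2 or limma-voom 0 passed, while 1 had an unadjusted p under 0.05 toward CHT-HSPC with edgeR (9.23% of all tested genes did). With edgeR, 3 passed toward CHT-HSPC without the low-count filter and 4 without CHT-HSPC replicate 2. The summed level of muscle markers was 3317 and 7252 CPM in the CHT-EC libraries, against 16422 and 2046 CPM in CHT-HSPC replicates 1 and 2. The sum of CHT-HSPC replicate 2 thus lay below those of both CHT-EC libraries. No marker of these 3 lists was at 0 in any library. The median ratio of the 7 endothelial markers between CHT-EC replicates 1 and 2 was 4.26, with a summed level of 315 to 360 CPM in CHT-EC, against 240 to 265 CPM in CHT-HSPC. The marker with the largest part of that sum in each of the 4 libraries was fli1a, an ETS factor gene named after its values were seen, at 151 and 232 CPM in the CHT-EC libraries, against 239 and 223 CPM in CHT-HSPC (log2FC −0.27, adjusted p = 0.616). The other 6 endothelial markers summed to 209 and 83.0 CPM in the CHT-EC libraries, against 26.1 and 17.3 CPM in CHT-HSPC. Of these sums, stab2 alone made up 104 and 61.4 CPM in CHT-EC, against 12.2 and 2.75 CPM in CHT-HSPC. Both CHT-EC libraries lay above both CHT-HSPC libraries for 4 of the 7 markers (30.6% of all tested genes). In CHT-EC replicate 2, tie1 (4.62 CPM) and cdh5 (1.05 CPM) were below both CHT-HSPC libraries. The part of cells of other tissues in the levels of ta, shha and epyc was not tested. Without CHT-EC replicate 1 their log2FCs were 4.63, 2.86 and 5.99, and why that library was the higher one was not tested.

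**Figure D4:**
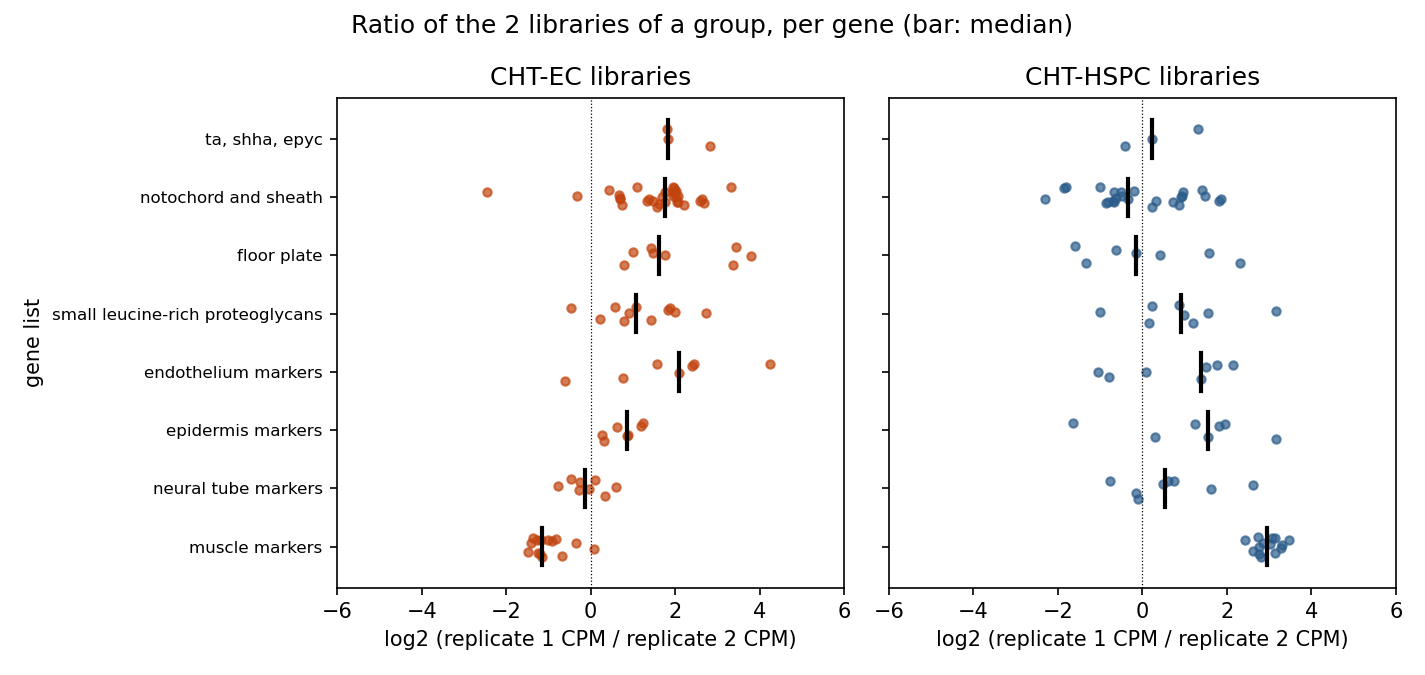
Log2 ratio of replicate 1 to replicate 2 in CPM, per tested gene with a count in both libraries, in CHT-EC (left, orange) and CHT-HSPC (right, blue), with black bars for the median of each list. In CHT-EC the medians of the notochord list (ratio 3.41) and the endothelial markers (4.26) lie right of 0 with ta, shha and epyc. So do those of floor plate (3.09), small leucine-rich proteoglycans (2.11) and epidermis markers (1.82), while those of neural tube (0.908) and muscle markers (0.447) do not. In CHT-HSPC the muscle markers stand apart (7.70) from the notochord list (0.797).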

How the data were processed

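The authors deposited raw, whole-number counts for Ensembl genes in 1 table, whose 4 columns were matched to samples by name. Per the labels' protocols, libraries were made with NEBNext Ultra and sequenced as 150 bp paired ends. TopHat2 and HTSeq 0.6.1 were used with the build GRCz10, per the submitters' processing notes. The sources used here do not give the treatment of strand and of multi-mapping reads, which bears on paralogs and overlapping genes.

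Counts were tested with edgeR 4.0.16 in R 4.3.3 (filterByExpr with a minimum count of 10 and total of 15, TMM factors, quasi-likelihood F-test on group), with DESeq2 1.42.0 and limma 3.58.1 as alternatives. The SE was derived from the fold change and its F statistic. The procedure was tested on simulated data. The 5 genes and all lists were chosen with earlier results of these data known. Beyond the 5 genes, each pathway list names its called genes, at most 4 by lowest p, and, where fewer than 3 passed, its most abundant tested members up to 3. Marker lists are given mainly as counts. Further genes were named for their role or position after their values were seen. No genome of the build was used, so no coordinates or sequences are given.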

Additional observations from a re-analysis of the deposited data

How the results depend on the processing

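The log2 fold changes of ta and epyc kept their direction and their call under all 12 alternatives, at 4.63 to 6.60 for ta and 5.99 to 7.84 for epyc, and these ranges are also those with 1 library left out. That of shha kept its direction throughout and lost its call with limma-voom (4.25) and in 3 of the 4 fits with 1 library left out, which gave 2.86 to 5.71. Over all tested genes there were 718 calls toward CHT-EC and 143 toward CHT-HSPC. These counts were 2119 and 812 without the low-count filter and 2012 and 796 with DESeq2. Library totals alone gave 471 higher in CHT-EC, limma-voom gave 233 higher in CHT-HSPC, and with 1 library left out the counts were 111 to 864 and 10 to 139, both lowest without CHT-EC replicate 1, while without CHT-EC replicate 2 there were 61 toward CHT-HSPC. Of the notochord list, 27 genes were higher in CHT-EC without the filter and 25 with DESeq2, and 7 to 17 with 1 library left out. Of the Hedgehog machinery, 4 and 1 genes were higher in CHT-EC and CHT-HSPC without the filter, 3 and 1 with DESeq2, 0 in CHT-EC with limma-voom, and 0 to 1 in CHT-EC with 1 library left out. Reversals were found for genes that did not pass. With 1 library left out, log2 fold changes spanned −0.33 to 0.21 for prkacaa, −0.013 to 0.27 for nkx3.2, −0.18 to 3.62 for spon1b, −0.071 to 3.41 for sulf1, −0.41 to 0.30 for lamc1, −1.12 to 0.75 for lamb1a, −0.74 to 2.37 for kera, −0.59 to 0.0085 for fli1a and −0.51 to 0.25 for nudc. These are the 9 genes that reversed among 48 recomputed beside ta, shha and epyc. For these changes the cause was not tested, except that fits without a library have fewer samples and assume that a lone library varies like the other group. Whether libraries with the same replicate number share a clutch or sort is not stated in the labels. The correlation of replicate deviations between groups was 0.0017, a value over all tested genes that cannot decide this. The replicate block gave 813 and 127 calls and ended no call of ta (5.67), shha (4.28) or epyc (6.91). Each group has 2 libraries, and at this depth 0 counts in a library cannot exclude levels up to about 0.1 CPM.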
